A study of Mus musculus with 3 samples.

Results

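The 4 wells of wild-type (WT) mouse embryonic fibroblasts (MEF) kept in a culture medium named bCLFAE were compared with the 3 wells kept in a medium named bCFAE. The members were chosen by column name, bCLFAE 1 to 4 and bCFAE 1 to 3, and are 7 of the 274 columns of the count table. MEF are primary mesenchymal cells grown from mouse embryo tissue. The study exposed them in 96-well plates to the compounds of a commercial kinase inhibitor library and read their RNA with DRUG-seq2, in which every well gets a barcode during reverse transcription and the wells of a plate are then pooled into 1 library. All 7 wells stood on the same plate, whose label gives 4 days of treatment, and their names carry a medium and no compound. The 2 medium names differ by the letter L, and neither that letter nor the others are explained in the sources used here, so the names are used as names only. No label says that the wells came from separate cultures, so each p-value measures the spread between wells of this plate, which may be technical.

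Total counts were 516138, 663336, 443410 and 543904 in the bCLFAE wells and 664817, 726228 and 429866 in the bCFAE wells, against 4280 and 25308 in the 2 wells named for no cells. Levels are given in counts-per-million (CPM) of the well's total, in the order of the well numbers. The 12 fibroblast markers all had counts, with a summed level of 6157 to 7327 CPM in bCLFAE and 6200 to 6728 CPM in bCFAE. Ptprc of leukocytes, Tek, Emcn and Cldn5 of endothelium, Adipoq and Plin1 of fat cells, Comp of cartilage, Nanog and Esrrb of pluripotent cells, and Sox17 and Gata4 of endoderm were at 0 counts in all 7 wells. Other markers had counts, 6 of 7 for macrophages, 4 of 7 for endothelium, 3 of 4 for cartilage and 3 of 5 for extraembryonic endoderm. Macrophage markers summed to 31 to 91.9 CPM in bCLFAE and 51.2 to 55.7 CPM in bCFAE. Endothelial markers summed to 46.7 to 63.9 CPM and 48.1 to 59.2 CPM. The 6 skeletal muscle markers all had counts, summing to 24.8 to 53.3 CPM and 18.6 to 38.6 CPM. Mitochondrially encoded transcripts made up 0.874% to 0.933% of counts in bCLFAE and 0.698% to 0.825% in bCFAE. This share did not overlap between the media, and its part in the results was not tested. A chi-square per degree of freedom, which is close to 1 when 2 wells differ by counting error alone, was 1.10 to 1.12 among bCLFAE wells 1 to 3 and 1.59 to 1.70 between them and bCLFAE 4. It was 1.16 between bCFAE wells 1 and 2 and 1.51 to 1.72 between them and bCFAE 3, against 2.64 to 3.42 between wells of the 2 media. bCLFAE 4 and bCFAE 3 thus stood apart from their own medium's other wells, and counts that matter below are also given without them.

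Fibroblasts can carry a contractile program, in which smooth muscle actin and its partner proteins assemble stress fibres. In cultured fibroblasts this program is driven by TGF-beta signalling and by serum response factor (SRF), a transcription factor that binds a short DNA element named the CArG box and whose coactivators respond to the pool of free actin. BMP and Wnt signals are other regulators of mesenchymal cells, and both induce their own secreted or intracellular inhibitors, which are therefore often read as targets of the pathway.

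Of 6985 genes tested, 451 (6.46%) passed an adjusted p of 0.05 between bCLFAE and bCFAE in edgeR's quasi-likelihood test with Benjamini-Hochberg adjustment, which gives all adjusted p-values below. Of these, 214 (3.06%) were higher and 237 (3.39%) were lower in bCLFAE. At least a 2-fold difference was fitted for 185 of them (2.65%), 93 higher (1.33%) and 92 lower (1.32%). The median log2 fold change (bCLFAE over bCFAE) of all genes was -0.0005 and the median of its absolute value was 0.22. All bCLFAE wells lay above or all lay below the bCFAE wells in 1209 of the 6985 genes (17.3%; above in 7.95% and below in 9.36%), and in 428 of the 451 called ones. The genes named below for the widest changes were picked among called genes without overlap. Their lack of overlap was thus fixed by the choice and is no separate support. Without bCFAE 1 the count was 282, and without both wells that stood apart it was 325, of which 290 were among the 451.

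**Figure D1:**
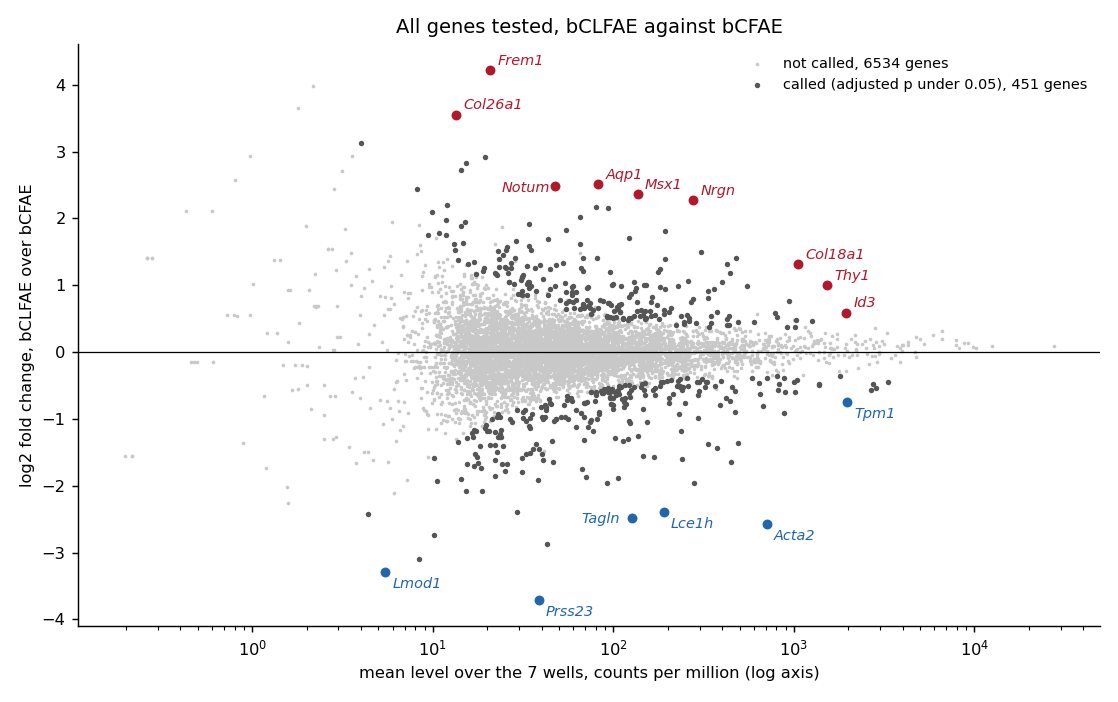
Log2 fold change of bCLFAE over bCFAE (vertical axis) against mean level in CPM over the 7 wells (horizontal axis, log scale) for the 6985 genes tested, with the 451 called genes dark or, where labelled, coloured, and the other 6534 in light grey. Frem1, Col26a1 and Lmod1 had only 2 or 3 counts in a medium, so their fitted values depend on the model. Calls lie on both sides of 0, with 214 above and 237 below, and Prss23, Lmod1 and Acta2 are among the lowest points.

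Smooth muscle contractile genes were lower in bCLFAE. Of 28 tested members of the list of smooth muscle contractile genes and SRF targets, 21 were lower and 0 higher in bCLFAE by edgeR, DESeq2 and limma alike (23 and 0 at an unadjusted p under 0.05), against 3.39% lower among all genes, and the list's median log2 fold change was -0.88. Its summed level was 5715 to 6016 CPM in bCLFAE wells and 10520 to 11218 CPM in bCFAE wells. Between 17 and 21 members were lower when each well was left out in turn, and 19 were lower without both wells that stood apart. In bulk wells such as these, fewer cells of a type and less RNA per cell cannot be told apart. The 7 smooth muscle markers alone summed to 300 to 325 CPM in bCLFAE and to 1640 to 1907 CPM in bCFAE.

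Acta2 (chr19:34241090-34255590, mm10), the smooth muscle alpha-actin used as the marker of contractile fibroblasts, had 221, 216, 246 and 219 CPM in bCLFAE wells, against 1474, 1314 and 1259 CPM in bCFAE wells. All bCLFAE wells were below all bCFAE wells, and the fitted level was 5.94-fold lower (log2 fold change -2.57 ± 0.15 SE, adjusted p = 1.81e-25). Tagln (chr9:45929619-45936058), the actin-binding protein transgelin, had 44.6, 43.7, 36.1 and 42.3 CPM in bCLFAE against 283, 196 and 237 CPM in bCFAE, a log2 fold change of -2.48 ± 0.18 (adjusted p = 4.57e-19). Its exons overlap those of Pcsk7 on the other strand, and the sources used here do not say whether the counting used strand. Myl9, the regulatory light chain of smooth muscle myosin, had 91.1, 69.3, 108 and 95.6 CPM in bCLFAE and 256, 260.2 and 302 CPM in bCFAE (log2 fold change -1.58 ± 0.17, adjusted p = 8.63e-12). Cnn1, the calponin that binds actin filaments in smooth muscle, had 25.2, 21.1, 9.02 and 11 CPM in bCLFAE and 70.7, 57.8 and 72.1 CPM in bCFAE (log2 fold change -1.92 ± 0.29, adjusted p = 4.03e-07). Fhl1, a LIM-domain protein of muscle cells, had 31, 40.7, 49.6 and 44.1 CPM in bCLFAE and 188, 151 and 142 CPM in bCFAE (log2 fold change -1.95 ± 0.19, adjusted p = 1.94e-13). The highest bCLFAE well was below the lowest bCFAE well for each of these 5 genes.

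The other muscle actins moved the same way. Acta1, the skeletal muscle alpha-actin, averaged 24.5 ± 6.05 CPM in bCLFAE and 75.3 ± 14.7 CPM in bCFAE (SD, n = 4 and 3), a log2 fold change of -1.64 ± 0.26 (adjusted p = 7.55e-07). Actg2, the gamma-actin of visceral smooth muscle, averaged 16.6 ± 3.75 and 50.7 ± 15.9 CPM in bCLFAE and bCFAE wells (log2 fold change -1.59 ± 0.35, adjusted p = 0.0021). Its call was lost without bCFAE 2 (adjusted p = 0.0555). Reads from the near-identical actin genes could have been divided between them by the counting, so the actin values are uncertain as values of single genes. Lmod1, which starts actin filaments in smooth muscle, had 2 counts over the 4 bCLFAE wells and 21 over the 3 bCFAE wells, a ratio of 0.0800 with a 95% counting interval of 0.0091 to 0.327.

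RNA of abundant filament proteins was also lower. Tpm1, a tropomyosin that lies along actin filaments, had 1440, 1574, 1554 and 1539 CPM in bCLFAE, against 2720, 2564 and 2461 CPM in bCFAE (log2 fold change -0.74 ± 0.12, adjusted p = 1.05e-06). Further falls of the list were those of Csrp1 (log2 fold change -1.56), Pdlim5 (-1.12), the crosslinker Actn1 (-1.03), Tpm2 (-0.99), Tagln2 (-0.91), Fhl2 (-0.85), Cald1 (-0.58), Cnn2 (-0.57) and Pdlim7 (-0.53). Smtn (-1.17), Tgfb1i1 (-0.74) and Flna (-0.39) also passed the test, but not with every well left out. Smtn was lost without bCFAE 1, bCFAE 2 or bCLFAE 3 (adjusted p = 0.0638, 0.0766 and 0.0695), Tgfb1i1 without bCFAE 2 (log2 fold change -0.43, adjusted p = 0.38), and Flna without bCFAE 1, bCFAE 2 or bCLFAE 2 (adjusted p = 0.0573, 0.143 and 0.0924). Cald1 was lost without both wells that stood apart (adjusted p = 0.0562). The 7 members that did not pass included Srf itself, with a log2 fold change of -0.48 ± 0.24 (adjusted p = 0.289), and its coactivator Mkl1, with 0.12. The others were Vcl at -0.43, Des at -0.66, Tpm4 at -0.14, Filip1l at 0.25 and Mylk, which had 4 counts in bCLFAE and 3 in bCFAE.

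**Figure D2:**
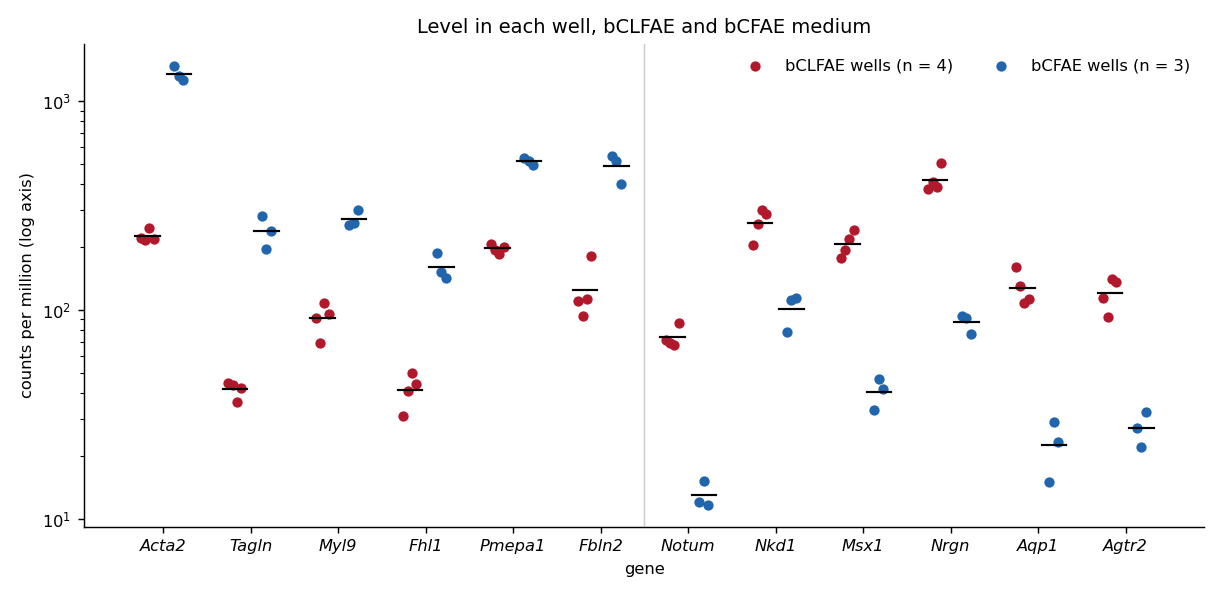
Level in CPM (log axis) of 12 genes in each of the 4 bCLFAE wells and the 3 bCFAE wells, 1 point per well and a bar at each mean. Acta2, Tagln, Myl9, Fhl1, Pmepa1 and Fbln2 lie lower in every bCLFAE well, and Notum, Nkd1, Msx1, Nrgn, Aqp1 and Agtr2 lie higher in every bCLFAE well than in any bCFAE well. Lack of overlap was a condition for naming the widest changes.

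Since SRF binds CArG boxes, promoter sequences are shown for 5 falling muscle genes that hold a match to this element or a near form of it. They are the 250 bases before an annotated start in RefSeq (GRCm38.p6), printed 5′ to 3′ on the gene's strand, with capitals at each match to a CArG-like sequence. Fhl1 had 2 windows, and where a gene had several the window with most matches was printed. The printed window of Fhl1 lies inside the gene's span (chrX:56731787-56793346), and the start used in these cells was not tested. A CArG box here is CC, then 6 letters that are each A or T, then GG, a pattern that reads the same on both strands. In the CArG-like form 1 of the inner 6 letters may be any base. The regions are chr19:34255374-34255623 on the minus strand for Acta2, chr2:156775214-156775463 on the plus strand for Myl9, chr8:123894776-123895025 on the minus strand for Acta1, chrX:56779433-56779682 on the plus strand for Fhl1 and chr10:79988350-79988599 on the plus strand for Cnn2.
Acta2: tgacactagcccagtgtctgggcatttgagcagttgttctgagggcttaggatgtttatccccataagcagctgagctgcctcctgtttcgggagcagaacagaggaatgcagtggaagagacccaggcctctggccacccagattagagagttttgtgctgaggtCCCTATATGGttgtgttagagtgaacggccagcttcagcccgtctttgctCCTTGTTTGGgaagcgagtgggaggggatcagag
Myl9: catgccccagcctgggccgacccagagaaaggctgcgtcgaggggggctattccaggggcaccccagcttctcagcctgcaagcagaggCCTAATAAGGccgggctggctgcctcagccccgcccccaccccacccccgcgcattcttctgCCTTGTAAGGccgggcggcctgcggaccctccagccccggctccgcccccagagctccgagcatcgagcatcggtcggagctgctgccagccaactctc
Acta1: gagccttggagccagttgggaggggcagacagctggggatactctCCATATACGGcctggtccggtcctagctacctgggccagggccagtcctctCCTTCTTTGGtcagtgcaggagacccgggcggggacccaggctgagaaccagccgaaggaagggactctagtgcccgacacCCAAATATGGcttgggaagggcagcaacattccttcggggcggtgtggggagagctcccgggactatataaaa
Fhl1: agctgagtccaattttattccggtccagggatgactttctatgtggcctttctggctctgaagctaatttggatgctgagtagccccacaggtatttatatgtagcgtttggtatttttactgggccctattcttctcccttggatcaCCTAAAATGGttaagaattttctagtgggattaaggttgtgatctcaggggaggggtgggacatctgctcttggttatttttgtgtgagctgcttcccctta
Cnn2: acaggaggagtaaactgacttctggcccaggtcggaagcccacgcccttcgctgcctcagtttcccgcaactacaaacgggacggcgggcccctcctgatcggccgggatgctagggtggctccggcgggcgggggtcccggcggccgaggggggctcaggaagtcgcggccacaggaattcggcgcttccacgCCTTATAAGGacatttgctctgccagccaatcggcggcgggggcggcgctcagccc
The matches began 84 and 34 bases before the start in Acta2, 161 and 99 in Myl9, 205, 154 and 73 in Acta1, 102 in Fhl1 and 56 in Cnn2. In windows of the same kind, running from 250 bases before to 50 bases after the start, a CArG box was present for 94 of the 5340 tested genes that had a promoter entry (1.76%) and in 1.63% of all 32851 promoter windows. It was present for 11 of 174 genes lower in bCLFAE (6.32%) and for 1 of 149 genes higher in bCLFAE (0.671%). Among the smooth muscle list it was present for 8 of the 24 tested members with an entry and for 5 of the 18 that were lower. The CArG-like form was present for 10.7% of tested genes, 19% of the lower genes and 8.05% of the higher genes. Of the 18 lower smooth muscle genes with an entry 6 had it, and the 5 printed above are among these 6. Cnn1, Tpm1 and Csrp1 are among those without it. The window of Acta2 held 0 CArG boxes, so its matches are of the CArG-like form only. These shares describe letters in a window and were not tested, and a match is not a measured binding site.

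Genes of the cytoplasmic actin and focal adhesion list leaned the same way, by less. Of 20 tested members 9 were lower and 0 higher by edgeR, DESeq2 and limma (12 and 1 at an unadjusted p under 0.05), with a median log2 fold change of -0.43. Among all genes 3.39% were lower and 3.06% higher. Itgb1, the beta 1 integrin subunit that binds cells to matrix, had 446, 487, 512 and 581 CPM in bCLFAE and 945, 940.5 and 796 CPM in bCFAE (log2 fold change -0.81 ± 0.12, adjusted p = 1.21e-07). Actb, the main cytoplasmic actin, averaged 2364 ± 184 CPM in bCLFAE and 3479 ± 344 CPM in bCFAE (SD, n = 4 and 3), a log2 fold change of -0.54 ± 0.15 (adjusted p = 0.0146). Its call was lost without bCFAE 1, bCLFAE 2 or bCLFAE 3 (adjusted p = 0.116, 0.0519 and 0.0582) and when wells were scaled by their totals (adjusted p = 0.183). Actg1 (log2 fold change -0.56 ± 0.14) and Zyx (-0.50 ± 0.12), a zinc-binding protein of focal adhesions, passed in every repeat that left out a well. Msn (-0.78), Vasp (-0.60), Tmsb4x (-0.56), Pfn1 (-0.48) and Tmsb10 (-0.42) were also lower. Msn was lost without bCFAE 2 (adjusted p = 0.0718), and Vasp and Tmsb4x without bCFAE 1 (0.0898 and 0.0546). Pfn1 was lost in 5 of 7 such repeats (adjusted p = 0.0518 to 0.0985), all but those without bCFAE 2 or bCLFAE 1, and Tmsb10 in 5 of 7 (0.0597 to 0.13), all but those without bCLFAE 1 or bCLFAE 3. Only 4 members of the list were lower without bCFAE 1.

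TGF-beta response genes divided. Of 23 tested members 5 were higher and 4 lower in bCLFAE, against 3.06% and 3.39% of all genes, with a median log2 fold change of 0.05. Pmepa1, a TGF-beta-induced feedback inhibitor of the pathway, had 207, 194, 185 and 200.4 CPM in bCLFAE and 534, 518 and 493 CPM in bCFAE (log2 fold change -1.37 ± 0.12, adjusted p = 2.37e-16). Every bCLFAE well was below every bCFAE well. Timp3, a matrix-bound inhibitor of metalloproteinases whose exons overlap Syn3 on the other strand, had a log2 fold change of -1.30 ± 0.15 (adjusted p = 8.47e-11). Fn1, fibronectin, had 849, 696, 762 and 609 CPM in bCLFAE and 1092, 1210 and 1033 CPM in bCFAE (log2 fold change -0.59 ± 0.13, adjusted p = 0.000422).

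Other genes of the same list were higher. Tgfbi, a secreted matrix protein named for its induction by TGF-beta, had 159, 178, 171 and 164 CPM in bCLFAE, against 73.7, 92.3 and 100.0 CPM in bCFAE (log2 fold change 0.95 ± 0.17, adjusted p = 3.7e-05). Cdkn2b, a cell cycle inhibitor, averaged 73.3 ± 10.3 CPM in bCLFAE and 40.8 ± 5.09 CPM in bCFAE (log2 fold change 0.86 ± 0.20, adjusted p = 0.00187). Snai2, a zinc-finger factor of mesenchymal cells, had a log2 fold change of 1.26 ± 0.34 (adjusted p = 0.00837) and was not called without bCFAE 2 (1.00, adjusted p = 0.139). Ltbp3, which binds latent TGF-beta, had 0.59 ± 0.17 and was not called without bCFAE 1, bCFAE 2 or bCLFAE 3 (adjusted p = 0.107, 0.124 and 0.0884). Snai1 had 0.50 ± 0.16 (adjusted p = 0.0472) and was lost in 6 of 7 repeats that left out a well (adjusted p = 0.0807 to 0.149), all but the one without bCLFAE 4. Without bCFAE 2, 2 members of the list were higher, and without bCFAE 1 or bCLFAE 3 there were 3. The ligands and receptors did not pass: Tgfb1 had a log2 fold change of 0.16 ± 0.24, Tgfb2 of 0.90 ± 0.52, Tgfb3 of 0.05, Tgfbr1 of -0.99 ± 0.39 (adjusted p = 0.131) and Tgfbr2 of 0.21. The inhibitory Smad7 was at -0.56 ± 0.32 (adjusted p = 0.366).

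**Figure D3:**
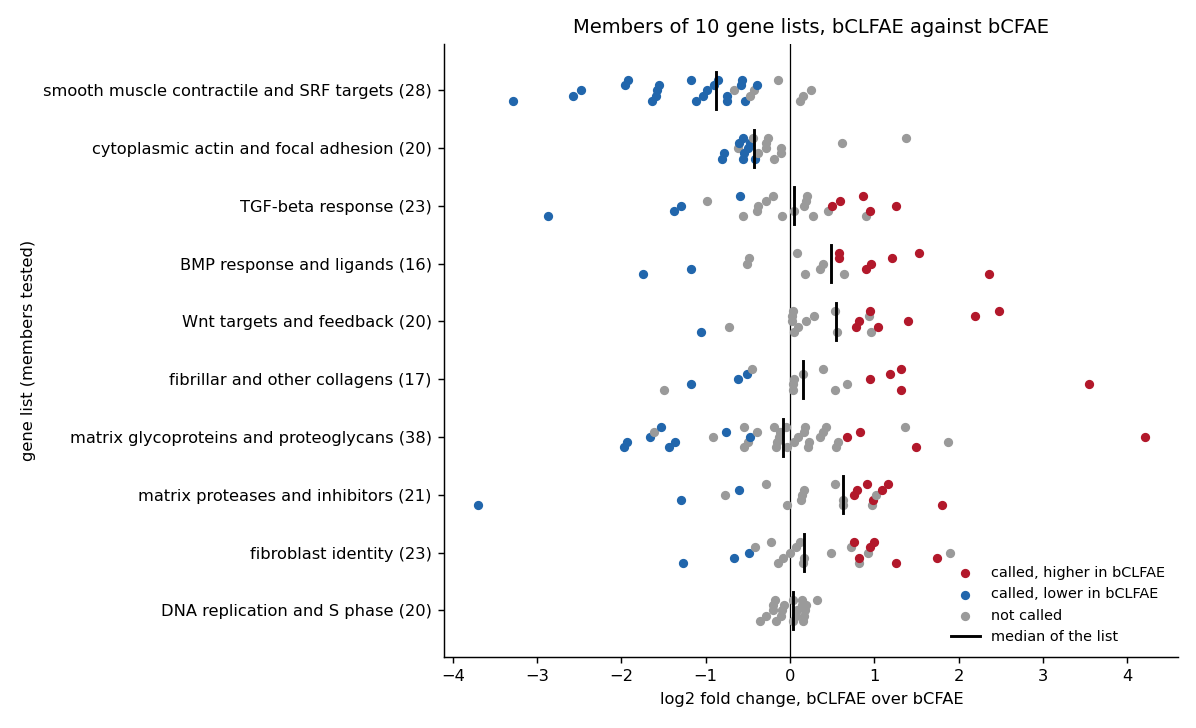
Log2 fold change of bCLFAE over bCFAE for each tested member of 10 gene lists, 1 point per gene in red (called, higher), blue (called, lower) or grey, and a bar at each list's median. The smooth muscle list has a median of -0.88 with 0 calls above 0, the Wnt list a median of 0.55, and the TGF-beta list spreads to both sides around a median of 0.05.

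BMP genes changed in both directions. Of 16 tested members of the BMP list 7 were higher and 2 lower, with a median log2 fold change of 0.49. Among all genes 3.06% were higher and 3.39% lower. Among the ligands, Bmp4 had 40.7, 34.7, 45.1 and 71.7 CPM in bCLFAE and 16.5, 12.4 and 23.3 CPM in bCFAE (log2 fold change 1.53 ± 0.31, adjusted p = 0.000273). Bmp2 had 85.2, 49.7, 92.5 and 73.5 CPM in bCLFAE, against 37.6, 52.3 and 23.3 CPM in bCFAE (log2 fold change 0.90 ± 0.23, adjusted p = 0.00481). Its groups overlapped, since bCLFAE 2 was below bCFAE 2, and the call was lost without bCFAE 3 (adjusted p = 0.0621). Bmp7 was at 0.65 (adjusted p = 0.111). Among the genes that BMP signals induce, Msx1 (chr5:37820485-37824583), a homeobox factor of embryonic mesenchyme, had 176, 194, 219 and 241 CPM in bCLFAE and 33.1, 46.8 and 41.9 CPM in bCFAE (log2 fold change 2.36 ± 0.27, adjusted p = 4.03e-07). Id1 had 905, 900.0, 852 and 995 CPM in bCLFAE and 642, 646 and 554 CPM in bCFAE (log2 fold change 0.58 ± 0.12, adjusted p = 0.000278), and Id3 had a nearly equal log2 fold change of 0.59 ± 0.12. The Id proteins hold back basic helix-loop-helix factors and are direct targets of BMP-activated Smads. Id2 was at 0.40 (adjusted p = 0.0806).

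Fst and Inhba were lower. Fst, follistatin, which binds activin and some BMPs outside the cell, had 32.9, 36.2, 18 and 42.3 CPM in bCLFAE and 137, 101 and 100.0 CPM in bCFAE (log2 fold change -1.75 ± 0.21, adjusted p = 1.34e-10). Every bCLFAE well was below every bCFAE well. Inhba, the subunit of activin A, had 13.6, 10.6, 11.3 and 9.19 CPM in bCLFAE and 34.6, 23.4 and 16.3 CPM in bCFAE (log2 fold change -1.17 ± 0.37, adjusted p = 0.0349). That call was lost in 5 of 7 repeats that left out a well (adjusted p = 0.0593 to 0.351), all but those without bCFAE 3 or bCLFAE 1. Grem1, a secreted BMP antagonist, was at -0.48 and did not pass. Atoh8, a basic helix-loop-helix factor, was higher (log2 fold change 1.21 ± 0.22, adjusted p = 1.96e-05), as was the growth factor Gdf15 (0.96 ± 0.28). Gdf15 was lost without bCFAE 2, bCFAE 3, bCLFAE 2 or bCLFAE 3 (adjusted p = 0.0545 to 0.115). Without both wells that stood apart, 5 members of the BMP list were higher and 1 lower.

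Several Wnt feedback genes were higher. Of 20 tested members of the Wnt list 7 were higher and 1 lower, against 3.06% higher and 3.39% lower among all genes. The list's median log2 fold change was 0.55, and 18 of the 20 had a positive value. Notum (chr11:120653788-120661175), a secreted enzyme that inactivates Wnt proteins by removing their lipid, had 71.7, 69.3, 67.7 and 86.4 CPM in bCLFAE and 12, 15.1 and 11.6 CPM in bCFAE (log2 fold change 2.48 ± 0.30, adjusted p = 1.15e-09). Nkd1 (chr8:88521354-88594884), an intracellular inhibitor that binds Dishevelled, had 203, 258, 299.9 and 287 CPM in bCLFAE and 78.2, 112 and 114 CPM in bCFAE (log2 fold change 1.39 ± 0.16, adjusted p = 6.13e-11). For both genes every bCLFAE well was above every bCFAE well. The exons of Notum overlap antisense transcripts, Notumos and Myadml2os. Wif1, which binds Wnt outside the cell, had 21.3, 18.1, 11.3 and 22.1 CPM in bCLFAE and 4.51, 4.13 and 2.33 CPM in bCFAE (log2 fold change 2.20 ± 0.60, adjusted p = 0.0121). It rested on 40 counts in bCLFAE and 7 in bCFAE and was lost without bCFAE 1, bCFAE 2 or bCFAE 3 (adjusted p = 0.06, 0.0706 and 0.0543).

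Dkk3 (log2 fold change 0.95 ± 0.23, adjusted p = 0.00259) and Twist1 (0.82 ± 0.18, adjusted p = 0.000981), a mesenchymal transcription factor, were higher in every repeat that left out a well. Nkd2, the relative of Nkd1, had 1.05 ± 0.30 and was not called without bCFAE 2 (adjusted p = 0.225), and the receptor gene Tnfrsf19 had 0.78 ± 0.18 and was not called without bCFAE 3 (adjusted p = 0.0511). Cd44, the hyaluronan receptor, was the member that fell, with 89.1, 79.9, 99.2 and 71.7 CPM in bCLFAE and 194, 173 and 163 CPM in bCFAE (log2 fold change -1.06 ± 0.16, adjusted p = 1.42e-07). Axin2, a feedback inhibitor often used as a Wnt readout, did not pass, with 29.1, 21.1, 29.3 and 25.7 CPM in bCLFAE and 9.03, 19.3 and 27.9 CPM in bCFAE (log2 fold change 0.56 ± 0.34, adjusted p = 0.413). Its bCFAE wells spread widely and bCFAE 3 lay among the bCLFAE wells. The transcription factor genes Lef1 (0.96, adjusted p = 0.111) and Sp5 (0.94, adjusted p = 0.0674) did not pass, and Ctnnb1, which encodes beta-catenin, was at 0.04. The inhibitor genes Kremen1 (0.53, adjusted p = 0.143), Sfrp1 (0.04) and Sfrp2 (0.09) did not pass either. Dkk2, which encodes another secreted modulator, was at -0.72 (adjusted p = 0.118) and was called lower without bCFAE 2 (-1.05, adjusted p = 0.0213). The letters CTTTGAT, a sequence that TCF/LEF factors bind, were searched on both strands of the promoter windows and were present for 2 of 14 Wnt genes with an entry, 4.7% of higher genes, 4.02% of lower genes, 2.94% of tested genes and 3.73% of all windows.

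Collagens and matrix glycoproteins moved in both directions. Of 17 tested collagens 5 were higher and 3 lower (median log2 fold change 0.15), against 3.06% higher and 3.39% lower among all genes. Col18a1, a basement membrane collagen, had 1469, 1379, 1227 and 1590 CPM in bCLFAE and 516, 585 and 633 CPM in bCFAE (log2 fold change 1.31 ± 0.12, adjusted p = 4.08e-15). The collagen VI genes, which form beaded filaments, followed, Col6a1 with a log2 fold change of 1.18 ± 0.13 and Col6a2 with 0.95 ± 0.15. Col26a1 had 48 counts in bCLFAE and 3 in bCFAE, a ratio of 13.4 with a counting interval of 4.33 to 67.5. Col5a3 had 1.32 ± 0.39 and was lost without bCFAE 1, bCFAE 2, bCLFAE 1 or bCLFAE 2 (adjusted p = 0.0527 to 0.143). The fibril collagens of type I were lower: Col1a1 had 75.6, 106, 122 and 95.6 CPM in bCLFAE and 159, 158 and 142 CPM in bCFAE (log2 fold change -0.62 ± 0.16, adjusted p = 0.00806), and Col1a2 had -0.51 ± 0.14. Col1a1 was lost without bCFAE 1 or bCLFAE 1 (adjusted p = 0.0532 and 0.0736) and Col1a2 without bCFAE 1, bCLFAE 2 or bCLFAE 4 (0.138, 0.0618 and 0.061). Without bCFAE 1, 1 collagen was lower. Col12a1, a collagen that binds to the surface of fibrils, was lower at -1.18 ± 0.18 (adjusted p = 5.47e-07).

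Of 38 tested matrix glycoproteins and proteoglycans 4 were higher and 8 lower (median log2 fold change -0.08), against 3.06% and 3.39% of all genes. Relatives differed in sign. The counts were 7 higher and 7 lower by DESeq2, 7 and 8 in a fit on the 7 wells alone, and 7 and 9 without the low-count wells MEF 3 and bC8FAE 4. Fbln2, a fibulin of elastic fibres and basement membranes, had 110.4, 93.5, 113 and 182 CPM in bCLFAE and 545, 514 and 402 CPM in bCFAE (log2 fold change -1.96 ± 0.14, adjusted p = 3.34e-21). Fbln5 was lower too (-1.66 ± 0.36), whereas Fbln1 had 420.4, 386, 410.5 and 478 CPM in bCLFAE and 143, 145 and 169.8 CPM in bCFAE (log2 fold change 1.50 ± 0.16, adjusted p = 2.05e-12). Frem1 (chr4:82897920-83052339), a protein of the basement membrane zone in embryonic skin, had 38.7, 30.2, 29.3 and 42.3 CPM in bCLFAE and 0, 2.75 and 2.33 CPM in bCFAE. Its 76 counts in bCLFAE and 3 in bCFAE gave a ratio of 21.3, with a counting interval of 7.01 to 106. Tnc, tenascin C, had 221, 163, 201 and 276 CPM in bCLFAE and 623, 596 and 539.7 CPM in bCFAE (log2 fold change -1.44 ± 0.16, adjusted p = 2.67e-09). Bgn, the small proteoglycan biglycan (-1.36 ± 0.14), Thbs1, thrombospondin 1 (-1.53 ± 0.29), and the growth factor binding proteins Igfbp5 (-1.94 ± 0.47) and Igfbp7 (-0.76 ± 0.18) were also lower. Mfap2 of microfibrils was higher (0.83 ± 0.15), and so was Ecm1 (0.68 ± 0.17), which was lost without bCFAE 1 or bCLFAE 1 (adjusted p = 0.0529 and 0.0979).

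Of 21 tested matrix proteases and inhibitors 7 were higher and 3 lower (median log2 fold change 0.62), against 3.06% higher and 3.39% lower among all genes. The widest fall among the 24 genes named for the size of their change was that of Prss23 (chr7:89507783-89527187), a secreted serine protease, with 3.87, 10.6, 4.51 and 3.68 CPM in bCLFAE and 79.7, 84 and 83.7 CPM in bCFAE. It was 13.0-fold lower (log2 fold change -3.70 ± 0.33, adjusted p = 2.64e-16), and its exons overlap the antisense transcript Prss23os. Mmp11, stromelysin 3, had 209, 288, 266 and 357 CPM in bCLFAE and 51.1, 112 and 76.8 CPM in bCFAE (log2 fold change 1.81 ± 0.34, adjusted p = 0.000971). Mmp2, gelatinase A, had 325, 318, 295 and 406 CPM in bCLFAE and 171, 197 and 223 CPM in bCFAE (log2 fold change 0.80 ± 0.14, adjusted p = 1.16e-05). Htra1 (0.99 ± 0.22) and Ctsk, cathepsin K (0.77 ± 0.18), were higher. Mmp19 (1.16), Mmp23 (1.09) and Serpine2 (0.91) were higher but lost without single wells: Mmp19 without bCFAE 1, bCFAE 3 or bCLFAE 2 (adjusted p = 0.115, 0.057 and 0.224), Mmp23 without bCFAE 1 or bCFAE 3 (0.06 and 0.061), and Serpine2 in 5 of 7 repeats (0.0543 to 0.113), all but those without bCLFAE 1 or bCLFAE 3. Adam19 was lower (-0.60) and lost without bCFAE 1 or bCLFAE 2 (0.113 and 0.0681). Without bCFAE 1, and likewise without bCFAE 3, 4 members of the list were higher. Of 19 genes that process or cross-link collagen, 2 were higher, the prolyl hydroxylase subunit gene P4ha3 (1.01) and the procollagen protease gene Adamts14 (1.13). P4ha3 was lost without bCFAE 1, bCFAE 2 or bCLFAE 4 (adjusted p = 0.0997 to 0.163) and Adamts14 without bCFAE 2 (0.148).

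Fibroblast identity genes also differed. Of 23 tested members 6 were higher and 3 lower (median log2 fold change 0.17), against 3.06% higher and 3.39% lower among all genes. Thy1, a surface glycoprotein of fibroblasts, had 1769, 1652, 1955 and 2366 CPM in bCLFAE and 1038, 789 and 1103 CPM in bCFAE (log2 fold change 1.00 ± 0.17, adjusted p = 2.73e-05). Prrx2, a homeobox factor of limb and facial mesenchyme, was higher at 0.76 ± 0.14 (adjusted p = 6.86e-05), beside Twist1 and Snai2 above. Vim, the intermediate filament vimentin, averaged 2320 ± 96.4 CPM in bCLFAE and 3277 ± 179 CPM in bCFAE (SD, n = 4 and 3; log2 fold change -0.48 ± 0.12, adjusted p = 0.00476). S100a4 (0.94) and Dpt, dermatopontin (1.75), were higher, and Cd34 (-1.27) and Ly6a (-0.67) lower. S100a4 was lost without bCFAE 1, bCFAE 2 or bCFAE 3 (adjusted p = 0.0524 to 0.109), Dpt without bCFAE 2 or bCLFAE 4 (0.133 and 0.0697), Cd34 without bCFAE 2 (0.166) and Ly6a without bCFAE 2, bCLFAE 1 or bCLFAE 4 (0.0816, 0.054 and 0.0635). Without bCFAE 2, 3 members of the list were higher and 1 lower.

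Several of the widest changes lay outside the matrix and contractile genes. Nrgn (chr9:37544492-37552904), which encodes the calmodulin-binding protein neurogranin known from neurons, had 379.7, 409, 388 and 507 CPM in bCLFAE and 93.3, 90.9 and 76.8 CPM in bCFAE (log2 fold change 2.27 ± 0.15, adjusted p = 3.32e-24). Aqp1 (chr6:55336432-55348555), a water channel, had 161, 129.6, 108 and 112 CPM in bCLFAE and 15, 28.9 and 23.3 CPM in bCFAE (log2 fold change 2.51 ± 0.28, adjusted p = 7.25e-09). Agtr2, the type 2 receptor of angiotensin II, had 114, 92, 139.8 and 136 CPM in bCLFAE and 27.1, 22 and 32.6 CPM in bCFAE (log2 fold change 2.17 ± 0.21, adjusted p = 4.32e-14). For these 3 genes all bCLFAE wells lay above all bCFAE wells, which the rule for naming the widest changes required. The neural list as a whole had 2 higher and 1 lower of 10 tested members, Nptx1 (0.72) being higher and Stmn2 (-0.76) lower. Among all genes 3.06% were higher and 3.39% lower. Nptx1 was lost without bCFAE 1 (adjusted p = 0.204), and Stmn2 without bCFAE 1 or bCFAE 2 (0.0573 and 0.0522). The 6 neural markers summed to 167 to 246 CPM in bCLFAE and 242 to 262 CPM in bCFAE, and their part in these values was not tested. Draxin, a secreted axon guidance protein, had 54 counts in bCLFAE and 6 in bCFAE (log2 fold change 2.82 ± 0.63, adjusted p = 0.00227), and the 2 wells without cells held 2 and 5 counts of it. Wdr86 had 38.7, 28.6, 18 and 5.52 CPM in bCLFAE and 3.01, 4.13 and 2.33 CPM in bCFAE (log2 fold change 2.72 ± 0.62). Fbxo2, a ubiquitin ligase subunit, had 2.91 ± 0.75 and was lost without bCFAE 1 or bCFAE 2 (adjusted p = 0.0757 and 0.123).

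Lce1h, Lce3a and Krt19 were lower. Lce1h, of the late cornified envelope family of skin, had 48.4, 43.7, 49.6 and 125 CPM in bCLFAE and 403, 300.2 and 358 CPM in bCFAE (log2 fold change -2.39 ± 0.30, adjusted p = 7.58e-06). bCLFAE 4 stood above the other bCLFAE wells and below all bCFAE wells. Lce3a, of the same family, had -2.08 ± 0.44, and the family's near-identical copies make single values uncertain. Krt19, a keratin of simple epithelia, had 5.81, 21.1, 11.3 and 9.19 CPM in bCLFAE and 46.6, 35.8 and 39.5 CPM in bCFAE (log2 fold change -1.67 ± 0.33, adjusted p = 0.000155). Uchl1 (-1.32 ± 0.16) and Perp (-0.67 ± 0.17), which is also in the p53 list, were lower too. With Krt19 they made 3 of 6 tested members of the epithelial list lower and 0 higher by edgeR and DESeq2 (5 and 0 at an unadjusted p under 0.05). Among all genes 3.39% were lower. Uchl1 and Perp are not among the 7 epithelial markers. Of these markers 2 were tested and 1, Krt19, was called, and they summed to 20.2 to 92.5 CPM in bCLFAE and 108 to 130 CPM in bCFAE. Their part in these values was not tested. Gzme, granzyme E, had 9.69, 9.05, 6.77 and 14.7 CPM in bCLFAE and 73.7, 38.6 and 53.5 CPM in bCFAE (log2 fold change -2.39 ± 0.32, adjusted p = 6.93e-09). Ctla2a, which encodes a cysteine protease inhibitor and has a near copy in the genome, had 0, 1.51, 4.51 and 5.52 CPM in bCLFAE and 22.6, 20.7 and 16.3 CPM in bCFAE (log2 fold change -2.73 ± 0.56). Gm12603 was lower at -2.07 ± 0.45.

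Retinoid and metabolic genes gave single changes. Among all genes 3.06% were higher and 3.39% lower, and of 11 tested retinoid genes 3 were higher and 1 lower. Stra6, the membrane receptor through which retinol enters cells, had 327, 338, 349.6 and 357 CPM in bCLFAE and 654, 673 and 609 CPM in bCFAE (log2 fold change -0.90 ± 0.12, adjusted p = 1.66e-09). Cyp26b1, which degrades retinoic acid, had 1.89 ± 0.50 and was lost without bCFAE 2 or bCLFAE 4 (adjusted p = 0.089 and 0.103), and Dhrs3, which reduces retinal, had 0.44 ± 0.13 and was lost without bCFAE 1, bCLFAE 1 or bCLFAE 2 (0.339, 0.192 and 0.0743). Of 16 glycolysis genes 3 were lower and 0 higher by edgeR and limma (4 and 0 at an unadjusted p under 0.05), among them Slc2a1, the glucose transporter GLUT1 (-0.97 ± 0.19, adjusted p = 9.34e-05). Pfkfb3 (-1.18) was lost without bCFAE 1, bCFAE 2, bCLFAE 1 or bCLFAE 2 (adjusted p = 0.0529 to 0.183), and Aldoa (-0.36) in 6 of 7 repeats (0.0897 to 0.223), all but the one without bCLFAE 1. Fdps (-0.69 ± 0.14) of cholesterol synthesis was lower, and Fabp5, a fatty acid carrier, was higher (1.64 ± 0.43). Without both wells that stood apart these 2 calls were lost (adjusted p = 0.0609 and 0.0659). Slc7a11, the cystine transporter subunit, was higher (1.31 ± 0.28, adjusted p = 0.000556).

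Other lists held 0 to 2 higher and 0 to 2 lower calls each, where 6.46% of all genes tested were called (3.06% higher and 3.39% lower). The shares called in the G2/M (5%), p53 (5.26%) and inflammatory (4.76%) lists were near that of all genes. Those of the YAP (9.09%), ERK (14.3%) and interferon (22.2%) lists were above it, on 11, 14 and 9 genes. Of 22 tested genes of lysosomes and autophagy, 1 was higher (4.55%) and 2 were lower (9.09%). The cytosolic heat shock list had 0 higher and 2 lower of 16 tested members (12.5%). In the NRF2 and metallothionein list given above, 5.88% were higher and 11.8% lower. Axl, a receptor tyrosine kinase and target of YAP, had 145, 149, 160.1 and 160.0 CPM in bCLFAE and 355, 387 and 305 CPM in bCFAE (log2 fold change -1.18 ± 0.13, adjusted p = 1.06e-11), and was the only called gene of 11 in the YAP list. Etv5, an ETS factor induced by ERK signalling, was higher (0.78 ± 0.20, adjusted p = 0.00579), as was the ERK pathway inhibitor Spred1 (0.70), which was lost without bCFAE 2, bCFAE 3, bCLFAE 1 or bCLFAE 3 (adjusted p = 0.0598 to 0.241). Ifitm1, an interferon-induced membrane protein, had 124, 122, 144 and 164 CPM in bCLFAE and 21.1, 31.7 and 44.2 CPM in bCFAE (log2 fold change 2.16 ± 0.56, adjusted p = 0.0172), with no overlap between the media, and was lost without bCFAE 1 or bCFAE 2 (0.111 and 0.077). Of 9 tested interferon genes the other call was Ifitm3 (0.41), a close relative in sequence, which was lost in 5 of 7 repeats (0.0593 to 0.309), all but those without bCFAE 2 or bCLFAE 1. Of 20 tested genes of DNA replication 0 passed in edgeR, DESeq2 or limma and 0 had an unadjusted p under 0.05 (median log2 fold change 0.04). Of 20 tested G2/M genes Cenpf alone was lower (-1.56), which was lost without bCFAE 1 (adjusted p = 0.0749). In the unfolded protein response list 0 of 18 passed in these 3 tools, with 1 higher and 2 lower at an unadjusted p under 0.05, and 0 of 8 mitochondrially encoded genes passed, with 1 higher. Of those 8 genes 4 were higher in the fit on the 7 wells alone and 3 without MEF 3 and bC8FAE 4. In the p53 list Perp was the 1 call of 19 genes, and in the inflammatory list the chemokine gene Cxcl14 (-1.27 ± 0.34, adjusted p = 0.0078) was the 1 call of 21, which was lost without both wells that stood apart (adjusted p = 0.0989).

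The other media of the plate place these levels. Acta2 averaged 225 ± 13.9 CPM in bCLFAE, 179 ± 46.5 in bCSFAE, 129.6 ± 32.5 in bC8FAE, 782 ± 48.2 in bC6FAE[2], 1572 ± 110.2 in bC6FAE[10], 2114 ± 500.3 in wells named MEF, 2695 ± 274 in wells named basal and 1349 ± 112 in bCFAE (SD, n = 3 to 5). bCLFAE, bCSFAE and bC8FAE thus formed the low end of this order. Nkd1 averaged 262 CPM in bCLFAE, 248 in bCSFAE, 297 in bC8FAE, 195 in bC6FAE[2] and 287 in bC6FAE[10], against 7.4 in MEF, 11.1 in basal and 101 in bCFAE. For Msx1 the means were 208 CPM in bCLFAE, 214 in bCSFAE, 290.1 in bC8FAE, 251 in bC6FAE[2] and 464 in bC6FAE[10], against 10.3 in MEF, 7.67 in basal and 40.6 in bCFAE. For Nkd1 and Msx1 the bC6FAE[10] mean was above that of bCLFAE, and for Acta2 it was above that of bCFAE. These media share the bCFAE wells as their comparison, so the order is given as a description. The means of bC8FAE and MEF include the low-count wells bC8FAE 4 (119295 counts) and MEF 3 (138747 counts).

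**Figure D4:**
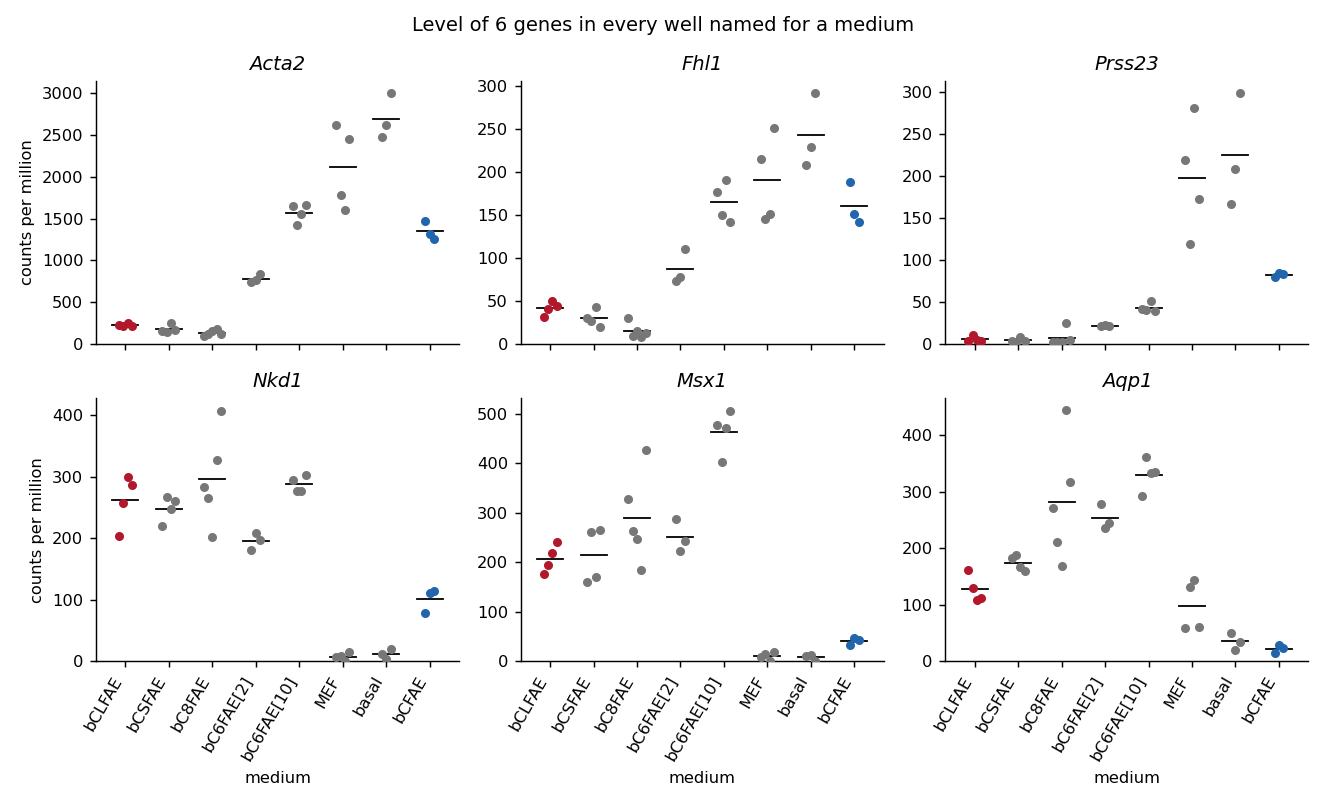
Level in CPM (linear axis from 0) of Acta2, Fhl1, Prss23, Nkd1, Msx1 and Aqp1 in each well of the 8 media, 1 point per well and a bar at each mean, with bCLFAE first and bCFAE last. The bCLFAE wells lie near the bCSFAE and bC8FAE wells for Acta2, while Aqp1 averages 128 in bCLFAE and 282 in bC8FAE.

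Set directly against the wells named bC8FAE, bCLFAE differed in 5 of 6985 genes (0.0716%), and 531 genes had an unadjusted p under 0.05. Acta2 was higher in bCLFAE, with 221, 216, 246 and 219 CPM against 94.9, 113, 149, 176 and 115 CPM in the 5 bC8FAE wells (log2 fold change 0.87 ± 0.16, adjusted p = 0.00277). The wells did not overlap, but the call was lost without bC8FAE 1 (0.76, adjusted p = 0.0571). Aqp1 was lower in bCLFAE, with 161, 129.6, 108 and 112 CPM against 271, 211, 169.5, 444 and 317 CPM in bC8FAE (log2 fold change -1.02 ± 0.17, adjusted p = 0.00277), and was called in 13 of 13 alternatives. The 444 CPM were 53 counts in bC8FAE 4, a well with a total of 119295 counts, 1.95% of them mitochondrially encoded. Without that well Aqp1 had -0.95 (adjusted p = 0.00561) and Acta2 0.91 (adjusted p = 0.0467). Tbca, a tubulin folding cofactor, was higher (0.67 ± 0.15), and Ptprs, a receptor tyrosine phosphatase (-0.49 ± 0.11), and 0610007P14Rik (-0.72 ± 0.16) were lower, each with an adjusted p of 0.0467 and called in 7, 5 and 6 of 13 alternatives. Fhl1 had a log2 fold change of 1.29 with a 95% interval of 0.69 to 1.90 (adjusted p = 0.057), and Tagln of 0.42 with an interval of -0.10 to 0.95. For Notum the value was -0.23 (interval -0.62 to 0.16), for Nkd1 -0.16 (-0.42 to 0.10) and for Nrgn -0.06 (-0.28 to 0.16). The median gene had an interval of 0.47 to either side.

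Against bCSFAE, bCLFAE differed in 2 of 6985 genes (0.0286%), and 348 had an unadjusted p under 0.05. Mmp10, stromelysin 2, had 136, 121, 144 and 160.0 CPM in bCLFAE and 268, 238, 265 and 279.5 CPM in bCSFAE (log2 fold change -0.88 ± 0.14, adjusted p = 6.7e-05), and was called in 12 of 12 alternatives. Gpnmb, a transmembrane glycoprotein, had 219, 197, 180.4 and 215 CPM in bCLFAE and 264, 339, 347 and 357 CPM in bCSFAE (log2 fold change -0.65 ± 0.13, adjusted p = 0.00491). The wells of the 2 media did not overlap for either gene. Gpnmb was called in 8 of 12 alternatives and was lost without bCLFAE 2, bCLFAE 3, bCSFAE 3 or bCSFAE 4. Acta2 had a log2 fold change of 0.37 with an interval of 0.07 to 0.68 (adjusted p = 0.918), Nkd1 of 0.10 (interval -0.16 to 0.36) and Tagln of 0.16 (interval -0.32 to 0.64). A p above the threshold does not show that the 2 media act alike, and the median gene had an interval of 0.44 to either side.

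**Figure D5:**
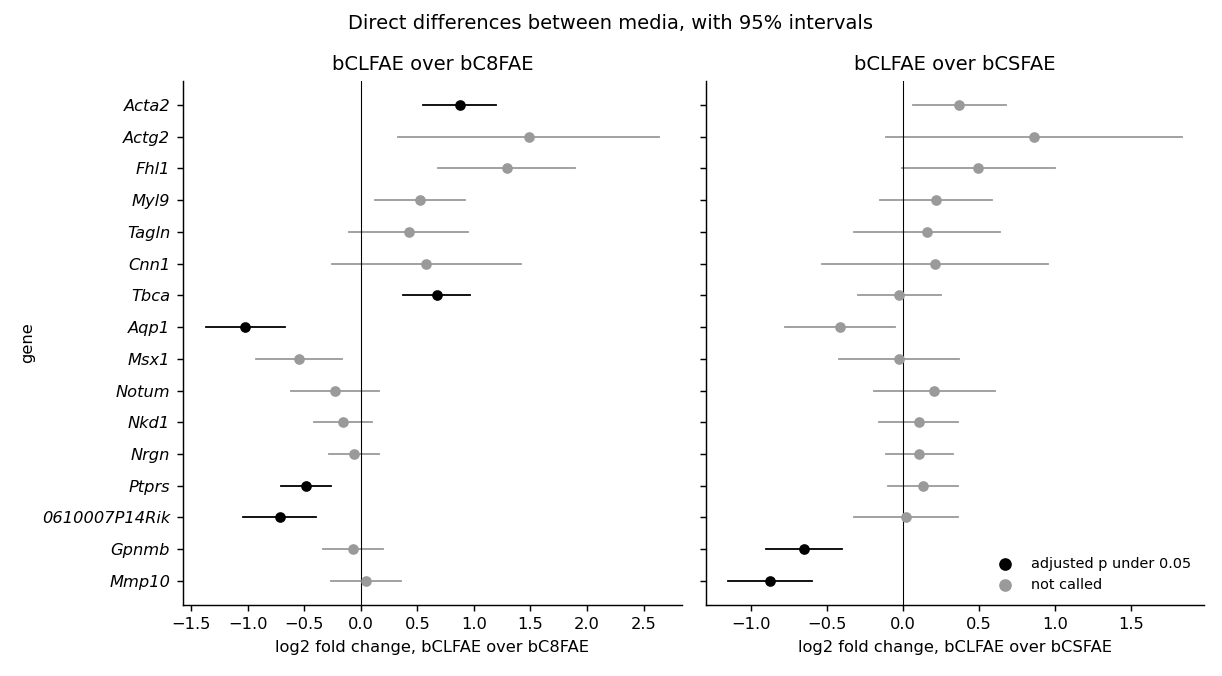
Log2 fold change of bCLFAE over bC8FAE and of bCLFAE over bCSFAE for 16 genes, with 95% intervals and called genes in black. Over bC8FAE, Acta2 lies at 0.87 and Aqp1 at -1.02, and over bCSFAE, Mmp10 lies at -0.88 and Gpnmb at -0.65, while the intervals of Nkd1 and Tagln include 0 in both comparisons.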

How the data were processed

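The deposited table holds whole-number counts per gene and well, with no scaling by the authors, as its values show. The submitters' processing notes name STAR as a tool and mm10 as the genome. The sources used here do not name the counting tool or annotation, nor say whether strand or molecular identifiers were used. The table had 20471 genes, 26 of them with names turned into dates, and 0 ERCC spike-ins. Of its 274 columns 242 were not used. Counts of 30 media wells on 1 plate entered 1 fit in edgeR 4.0.16 (R 4.3.3) with TMM scaling, filterByExpr at a minimum count of 10 and robust quasi-likelihood tests. Genes were called at an adjusted p under 0.05. Same-numbered wells of both media did not deviate together (r of -0.03 to 0.01 over 3192 genes, 3 pairs). Count ratios have exact 95% intervals, which cover counting error only. Positions come from GENCODE vM21 on mm10.

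The members and the 36 gene lists were chosen with earlier results of these data known. Genes were named as the 12 widest rises and 12 widest falls among called genes whose wells do not overlap and whose level averages at least 10 CPM, up to 4 called genes per list, all tested members of the smooth muscle, TGF-beta, BMP and Wnt lists, and up to 6 called genes against bC8FAE or bCSFAE. Another 26 called members of 5 matrix, adhesion and fibroblast lists were added after their values were seen, as were the CArG-like motif and the repeat without bCLFAE 4 and bCFAE 3. Alternatives were RLE scaling, library totals, other filters, DESeq2 1.42.0, limma 3.58.1 (voom), other sets of wells, each well left out, and well number as a block. A few genes that meet these rules are not reported here.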

Additional observations from a re-analysis of the deposited data

Results flagged for a closer look

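Of 185 values of the 4 bCLFAE wells, 12 had 1 well far from the others, and chance alone flags about 1 in 20 groups. bCLFAE 4 was high for Lce1h (125 CPM), Sfrp1 (25.7 CPM), Tsc22d1 (498 CPM), Col6a2 (302 CPM) and Prrx2 (1403 CPM) and low for Col5a3 (14.7 CPM) and for the share of ribosomal protein counts (16.4%). bCLFAE 2 was high for Lmod1 (3.02 CPM) and Prss23 (10.6 CPM) and low for Col12a1 (42.2 CPM). Lmod1 was at 0 CPM in the other bCLFAE wells and had 2 counts over the 4 wells. With the others at 0 any count is flagged. bCLFAE 1 was high for Ecm1 (172 CPM) and Pfn1 (1285 CPM).

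The response in bCLFAE differed from that in a related medium for 7 genes, as tested within the same fit. The log2 difference of bCLFAE minus bC8FAE was 0.87 for Acta2, -1.02 for Aqp1, 0.67 for Tbca, -0.49 for Ptprs and -0.72 for 0610007P14Rik, and that of bCLFAE minus bCSFAE was -0.88 for Mmp10 and -0.65 for Gpnmb.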

How the results depend on the processing

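Under 18 alternatives the 451 calls (214 higher, 237 lower) ranged up to 634 (310 and 324) in a fit on the 7 wells alone. At an adjusted p under 0.01 they were 275 (126 and 149). Leaving out each well in turn gave 282 to 410 calls, 129 to 199 higher and 153 to 211 lower, and the lowest counts came without bCFAE 1. Without bCFAE 2 the higher count was 138. Leaving out bCLFAE 4 and bCFAE 3, chosen after seeing the data, gave 325 (162 and 163). The well numbers share only a number. With well number as a replicate block there were 501 calls (231 and 270), 428 of them among the 451. Of 137 called genes that were named, 78 kept their call under each alternative that tested them (128 were tested in the fit on the 7 wells and 113 at a minimum count of 30), 59 lost it under at least 1, and 0 changed sign.

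Against bC8FAE the 5 calls became 2 on those wells alone, 12 without the low-count wells MEF 3 and bC8FAE 4, 9 with DESeq2 and 5 with the replicate block, and 2 to 19 with each well left out. Without bC8FAE 1 or bC8FAE 2 there were 3, without bC8FAE 3 there were 19, without bC8FAE 4 there were 9, and without bCLFAE 1, bCLFAE 2 or bCLFAE 4 there were 2, 2 and 3. Against bCSFAE the 2 calls became 11 on those wells alone, 5 without the low-count wells, 2 with DESeq2 and 4 with the replicate block. With each well left out there were 1 to 5, with 1 without bCLFAE 2, bCLFAE 3, bCSFAE 3 or bCSFAE 4 and 5 without bCLFAE 4. The cause of these shifts was not tested. Totals of 429866 to 726228 counts limit genes at a few CPM.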
